A study of Mus musculus with 12 samples.

Results

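The epidermal kallikreins and the inhibitors that restrain them were followed in the skin of obese and lean mice with atopic dermatitis (AD)-like lesions. The 10 genes were chosen by symbol from the 23282 entries of the count files and comprise 8 kallikreins (Klk5, Klk6, Klk7, Klk8, Klk10, Klk11, Klk13 and Klk14) and the inhibitors Spink5 and Cst6. All 10 were found. Skin RNA came from wild-type male C57BL/6J mice obtained at 5 weeks of age, with 1 library per mouse made by a kit that reads the 3′ ends of mRNA (QuantSeq). In all 12 mice lesions had been induced with 0.5% 2,4-dinitrochlorobenzene (DNCB), applied 3 times a week for 6 weeks. The 5 AD mice were fed a standard diet, and the 7 HF + AD mice (labelled AD+OB) a high-fat diet with 60 kcal% fat that began 4 weeks before DNCB. No skin without DNCB was analysed here, so that both groups carry the lesion and the comparison is about the high-fat diet on top of it.

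Kallikreins are secreted serine proteases, made as inactive precursors by keratinocytes of the upper epidermis. In the stratum corneum they cut the corneodesmosomes that hold the dead cells together, and this lets the surface be shed (desquamation). Spink5 encodes LEKTI, an inhibitor with many domains that binds KLK5, KLK7 and KLK14, and its loss causes Netherton syndrome, in which unrestrained kallikreins strip the barrier. Cst6 encodes cystatin M/E, which inhibits the cysteine proteases cathepsin L and legumain and not the kallikreins.

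The libraries of the AD mice held 9746937 to 11688979 counted reads, and those of the HF + AD mice 10726845 to 13462434. Fewer genes had at least 1 read in the AD libraries (13100 to 15063) than in the HF + AD libraries (15522 to 16677). A count of 0 allows up to 3 reads, or at most 0.310 CPM in any library (counting error only, since no molecular identifiers are described). Levels are given as CPM (reads of a gene scaled to a common library size) on TMM-scaled totals. A read marks a 3′ end, so that levels of different genes can be set side by side without a correction for length. Among the AD mice, mouse 1 had the highest level of the 5 for 9 of the 10 genes. Its lead over the next AD mouse ranged from 1.00 times (Klk14) to 3.02 times (Klk8), and only for Klk8 was it flagged as an outlier. The fold change of each of the 9 tested genes is also given without it. Leaving out a mouse picked for its high levels pushes these fold changes upward by construction, so such fits describe the dependence on 1 mouse.

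Klk7, a chymotrypsin-like protease that cuts corneodesmosin and desmocollin 1, was by far the most abundant kallikrein and was lower in the HF + AD group. It stood at 5951, 2514, 2561, 1873 and 2781 CPM in AD mice 1 to 5, and between 1327 and 2388 CPM in the HF + AD mice (median 1926). All 7 HF + AD mice lay below AD mice 1, 2, 3 and 5, and 3 of the 7 also lay below AD mouse 4, the lowest of its group. Its level was 1.69-fold lower in the HF + AD group (log2 fold change −0.76, standard error 0.23, adjusted p = 0.0498 from edgeR's quasi-likelihood test over 14163 genes). On the log2(CPM + 1) scale it was 11.49 ± 0.62 (SD, n = 5) and 10.82 ± 0.32 (SD, n = 7; two-sided exact permutation test with 792 splits, unadjusted p = 0.0177). Without AD mouse 1 the log2 fold change was −0.39 (adjusted p = 0.143 from edgeR) and the exact permutation p was 0.0606. The adjusted p was under 0.05 in 6 of 21 other fits, among them those omitting AD mouse 4 (0.0299) or HF + AD mouse 5 (0.0390), and in no other fit that left out 1 mouse. In whole skin, fewer cells of a type and less RNA per cell cannot be told apart.

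Klk7 lies on chromosome 7 of GRCm38 (43811294 to 43816359, plus strand; GENCODE M21) inside the kallikrein cluster, in which Klk14, Klk13, Klk11, Klk10, Klk9, Klk8, Klk7, Klk6 and Klk5 follow each other on the same strand. The 250 bases before its RefSeq start, and those before Klk10, the second most abundant kallikrein of the cluster here, are shown because all 8 kallikreins of the set were highest in mouse 1 among the AD mice, Klk14 by a small margin. Under GENCODE M21, which starts Klk10 earlier, the end of its window is transcribed. Capitals mark the letters CACCC on either strand, the core that KLF factors of the epidermis bind.
Klk7 (GRCm38.p6, plus strand, chr7:43811044-43811293): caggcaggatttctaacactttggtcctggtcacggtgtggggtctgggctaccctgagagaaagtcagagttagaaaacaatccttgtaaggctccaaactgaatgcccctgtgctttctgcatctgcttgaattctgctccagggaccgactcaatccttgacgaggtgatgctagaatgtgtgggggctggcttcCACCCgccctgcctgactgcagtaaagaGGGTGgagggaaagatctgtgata
Klk10 (GRCm38.p6, plus strand, chr7:43780804-43781053): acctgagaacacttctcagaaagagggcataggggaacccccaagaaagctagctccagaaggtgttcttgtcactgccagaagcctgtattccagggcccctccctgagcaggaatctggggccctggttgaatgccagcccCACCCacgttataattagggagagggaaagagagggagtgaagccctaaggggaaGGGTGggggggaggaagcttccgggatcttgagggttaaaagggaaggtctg
The windows counted were those of the 8 kallikreins (10 windows, RefSeq), and Spink5 and Cst6 are not among them. CACCC was in 7 of the 10 and in 52.0% of all 32851 windows. The TATA box letters TATAAA were in 0 of the 10, beside 12.4% of all windows. The AP-1 motif TGANTCA was likewise in 0, beside 6.75%. A binding motif of nuclear receptors, AGGTCA, was in 0, beside 14.02%. All were searched on both strands, and with 0 matches none overlapped CACCC. A match is a description of the letters and not of binding.

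Cst6 rose in the HF + AD group. AD mice 1 to 5 had 256, 98.8, 130, 144 and 308 CPM, and the HF + AD mice between 221 and 558 CPM (median 395). The groups overlapped, with 4 of the 7 HF + AD mice above all AD mice and the lowest HF + AD mouse below AD mice 1 and 5. The level was 2.03-fold higher (log2 fold change 1.02, standard error 0.28, adjusted p = 0.0310 from edgeR), and the mean of log2(CPM + 1) was 7.43 ± 0.69 in the 5 AD and 8.51 ± 0.48 in the 7 HF + AD mice (SD; exact permutation test, two-sided, unadjusted p = 0.0126). Cst6 lies on chromosome 19 (5344705 to 5349574, minus strand). Its adjusted p was under 0.05 in 15 of 21 other fits, and in 6 of the 12 that left out 1 mouse. It was above 0.05 on omitting any of AD mice 2 (0.0731), 3 (0.0774) and 4 (0.0718) and of HF + AD mice 1 (0.0675), 6 (0.0546) and 7 (0.0605). The log2 fold change was between 0.87 and 1.29 in these 12 fits. Without AD mouse 1 it was 1.16 (adjusted p = 0.0232).

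Spink5, the inhibitor of the kallikreins themselves, had a higher mean in the HF + AD group but did not pass the test over all genes. It stood at 640, 253, 482, 273 and 267 CPM in AD mice 1 to 5 and at 422 to 1121 CPM in the HF + AD mice (median 525). Only HF + AD mouse 1 lay above all AD mice, whereas 6 of the 7 lay above AD mice 2 to 5. edgeR gave a log2 fold change of 0.67 ± 0.26 (standard error; p = 0.0212 before and 0.120 after adjustment), with 8.48 ± 0.60 (SD, n = 5) and 9.18 ± 0.45 (SD, n = 7) on the log2(CPM + 1) scale (two-sided exact permutation test, p = 0.0518). Without AD mouse 1 the log2 fold change was 0.94 and passed (adjusted p = 0.0262 from edgeR, exact permutation p = 0.00606). That mouse was the highest of the AD mice, so leaving it out raises the difference by construction. Of the 21 other fits this was the only one in which Spink5 passed (edgeR adjusted p up to 0.257 across them). Spink5 lies on chromosome 18 (43963235 to 44022501, plus strand).

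**Figure D1:**
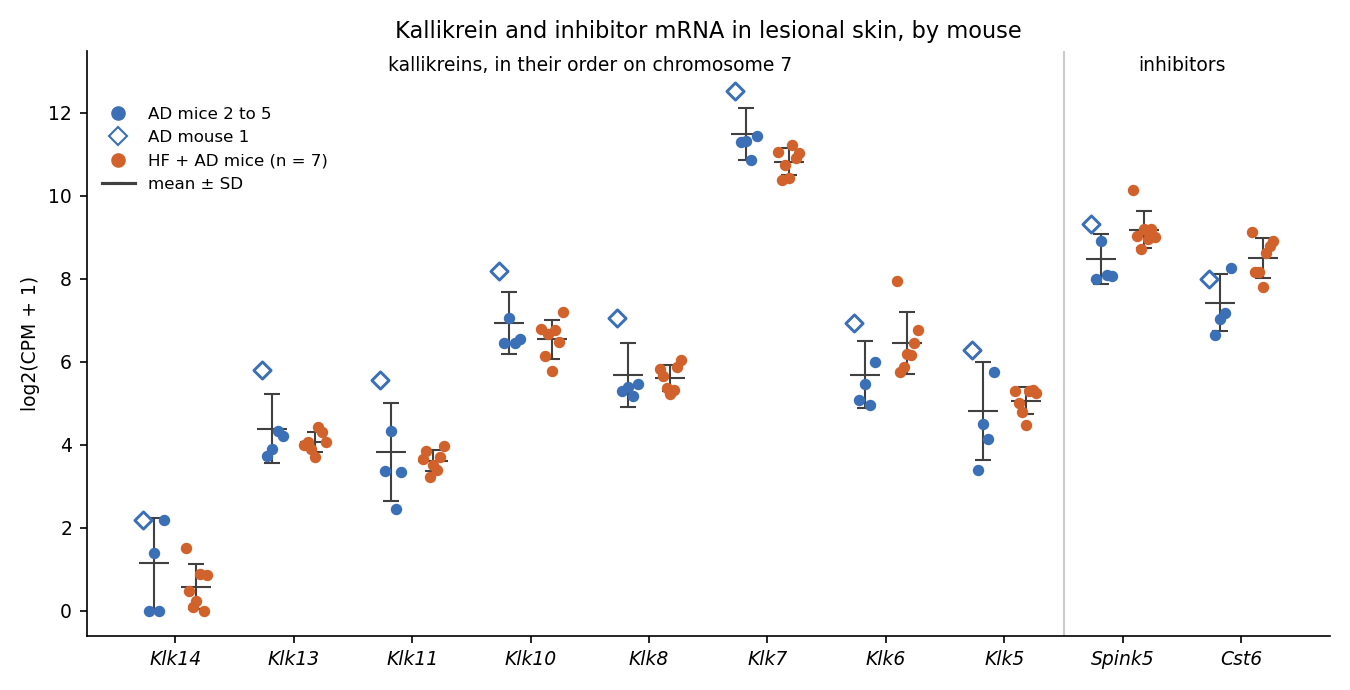
Level of each gene in every mouse as log2(CPM + 1), with the kallikreins in their order on chromosome 7 and the inhibitors at the right; blue, AD (n = 5, open diamond AD mouse 1), orange, HF + AD (n = 7), bars mean ± SD. Klk7 lies highest at 11.49 in the AD group and 10.82 in the HF + AD group, Cst6 goes from 7.43 to 8.51, and AD mouse 1 tops the AD mice in 9 of the 10 genes.

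Klk6, a trypsin-like protease, was the one kallikrein with a positive fold change in the fit over all mice. AD mice 1 to 5 had 122, 32.9, 43.1, 30.1 and 62.6 CPM, and the HF + AD mice 52.8 to 248 CPM (median 72.2). HF + AD mouse 1 alone lay above AD mouse 1, while 5 of the 7 lay above AD mice 2 to 5. With 0.77 ± 0.40 (standard error), its log2 fold change missed the threshold (edgeR, adjusted p = 0.240; two-sided exact permutation test, p = 0.122). Without AD mouse 1 it was 1.24 (adjusted p = 0.0455, exact permutation p = 0.0242), and this was the only one of the 21 other fits in which Klk6 passed.

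Klk5, which is thought to start the protease cascade by activating itself, KLK7 and KLK14, did not pass the test. It ranged from 9.52 to 76.9 CPM in the AD mice and from 21.5 to 39.3 CPM in the HF + AD mice, all of which lay within the AD range. Its spread was wider among the AD mice (SD 1.19 against 0.32 on the log2 scale). By edgeR its fold change was −0.097 ± 0.38 on the log2 scale (standard error; adjusted p = 0.912), whereas the means of log2(CPM + 1) went the other way, from 4.81 to 5.07 (two-sided exact permutation test, p = 0.592), and the fold change was 0.40 without AD mouse 1 (adjusted p = 0.499).

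Of the trypsin-like protease Klk8 (neuropsin), the AD mice held 131, 38.2, 41.1, 35.4 and 43.5 CPM, and the HF + AD mice 36.2 to 65.4 CPM (median 49.7). AD mouse 1 had 3.02 times the next highest AD level, and the other 4 AD mice lay close together. The log2 fold change was −0.24 with all mice (adjusted p = 0.675 from edgeR) and 0.32 without AD mouse 1 (adjusted p = 0.288). Klk10, a family member whose substrates are little known, stood at 86.1 to 290 CPM in the AD mice (median 92.3) and at 54.2 to 147 CPM in the HF + AD mice (median 101), and its log2 fold change was −0.51 (edgeR, adjusted p = 0.305), or −0.035 without AD mouse 1 (adjusted p = 0.944).

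Klk11 and Klk13, both trypsin-like, were less abundant. Klk11 ranged from 4.51 to 46.3 CPM in the AD mice and from 8.33 to 14.6 CPM in the HF + AD mice (log2 fold change −0.63, adjusted p = 0.393 from edgeR; 0.12 without AD mouse 1, adjusted p = 0.860). Klk13 ranged from 12.3 to 54.7 CPM and from 12.1 to 20.7 CPM (log2 fold change −0.55, adjusted p = 0.318; 0.032 without AD mouse 1, adjusted p = 0.951). For both, AD mouse 1 held over 2 times the next highest AD level (2.40 and 2.85 times), and the groups overlapped.

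Klk14, a trypsin-like protease of the cascade, was near the limit of the counts. The AD mice had 39, 0, 16, 0 and 39 reads and the HF + AD mice 0 to 24 reads, so that both groups held mice without a read. The test over all genes left it out for low counts. On the log2(CPM + 1) scale it was 1.15 ± 1.10 in the 5 AD and 0.58 ± 0.54 in the 7 HF + AD mice (SD), a difference not detectable at this depth (two-sided exact permutation test, p = 0.255), and when edgeR was run unfiltered the adjusted p was 0.469. An antisense transcript, 2310002F09Rik, spans Klk14 to Klk8, and at most 9 reads per mouse were listed on it; whether counting used strand is not given in the sources used here.

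Together, 9 of the 10 genes were tested over all genes, 3 with a positive and 6 with a negative fold change (median −0.24, against 0.023 over all genes tested). Of these, 3 had an unadjusted p under 0.05 (Klk7, Spink5 and Cst6), where 25.1% of all genes tested did, and 2 passed after adjustment (Cst6 higher, Klk7 lower), where 9.2% of all genes did (4.43% higher and 4.77% lower). In 0 of the 10 genes did the CPM of the groups not overlap, beside 5.45% of all genes (2.89% higher and 2.56% lower). With 9 genes tested, these shares do not set the family apart from the rest. Without AD mouse 1, 3 of 9 passed, all higher in the HF + AD group (Klk6, Spink5 and Cst6), beside 10% of all genes in that fit (5.38% higher and 4.66% lower), and no kallikrein was called lower. AD mouse 1 was picked out by its high levels, and omitting it pushes these fold changes upward, so this count is a description only. The fold changes of Klk5, Klk8, Klk11 and Klk13 changed sign in that fit, and those of Klk7, Klk10, Klk6, Spink5 and Cst6 kept theirs.

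**Figure D2:**
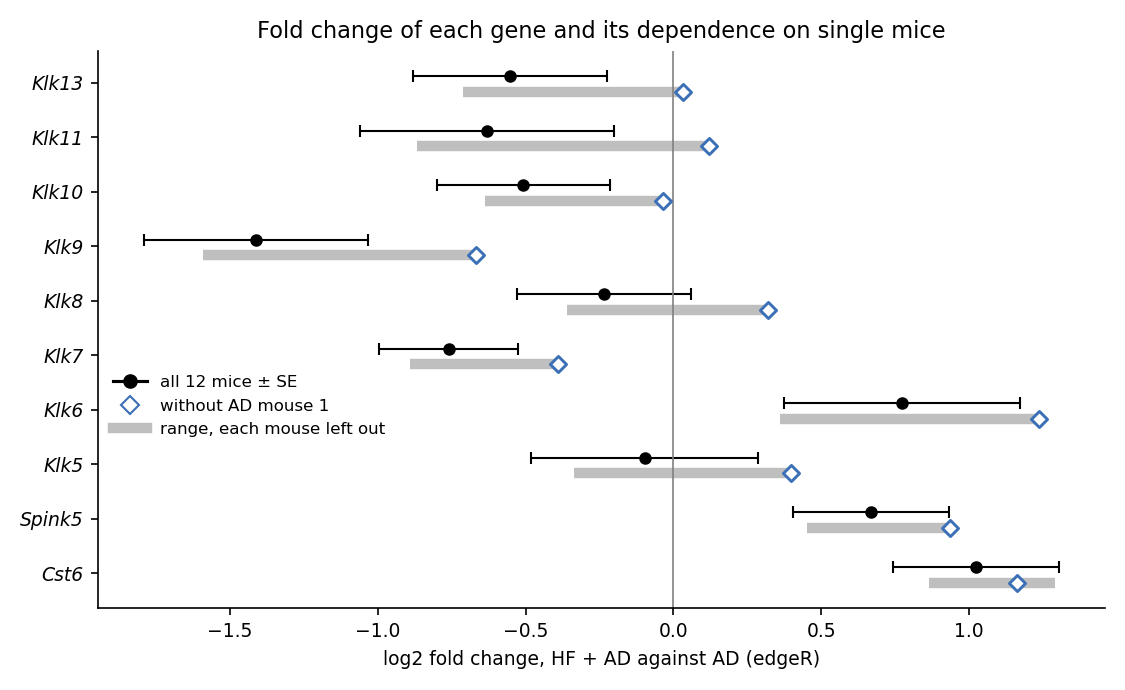
Log2 fold change of HF + AD against AD from edgeR for the 9 genes tested and for Klk9, which is no member of the set but lies in the cluster; black, all 12 mice ± standard error, gray bar, range over the 12 fits that each leave out 1 mouse, open diamond, fit without AD mouse 1. For all 8 kallikreins drawn the diamond sits at the upper end of the bar; for Klk7 it lies at −0.39 against −0.76 with all mice, and for Cst6 at 1.16 against 1.02.

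The kallikreins were also set against each other and against the inhibitors within each mouse, as ratios of counts. Such ratios do not depend on the scaling of the library, and they were not corrected for GC content. These are values without a test, since both terms come from the set. AD mice 1 to 5 had 930, 995, 532, 687 and 1041 Klk7 reads per 100 Spink5 reads, and the HF + AD mice between 189 and 480 (median 326). Every AD mouse, mouse 1 included, lay above every HF + AD mouse. Such a separation to lower ratios was found for 3.54% of all genes set against Spink5 in this way, to higher ratios for 0.226%, and among the 8 kallikreins for Klk7 alone.

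Set against Cst6, Klk7 also separated without overlap, with 9.02 to 25.4 reads per Cst6 read in the AD mice and 3.79 to 6.20 in the HF + AD mice. Klk13 was the other of the 8 kallikreins whose ratio to Cst6 did not overlap, beside 7.34% of all genes with lower and 0.205% with higher ratios. Per 100 Klk7 reads there were 2.05, 1.31, 1.68, 1.61 and 2.25 Klk6 reads in AD mice 1 to 5 and 2.94 to 11.7 in the HF + AD mice (median 4.49). All 7 HF + AD mice thus held more Klk6 per Klk7 than any AD mouse, and no other kallikrein separated in its ratio to Klk7, where 6.3% of all genes did to higher and 0.0141% to lower ratios. Of the reads of the 8 kallikreins, Klk7 made up 90.8% ± 1.41 in the 5 AD mice and 85.9% ± 2.51 in the 7 HF + AD mice (SD).

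**Figure D3:**
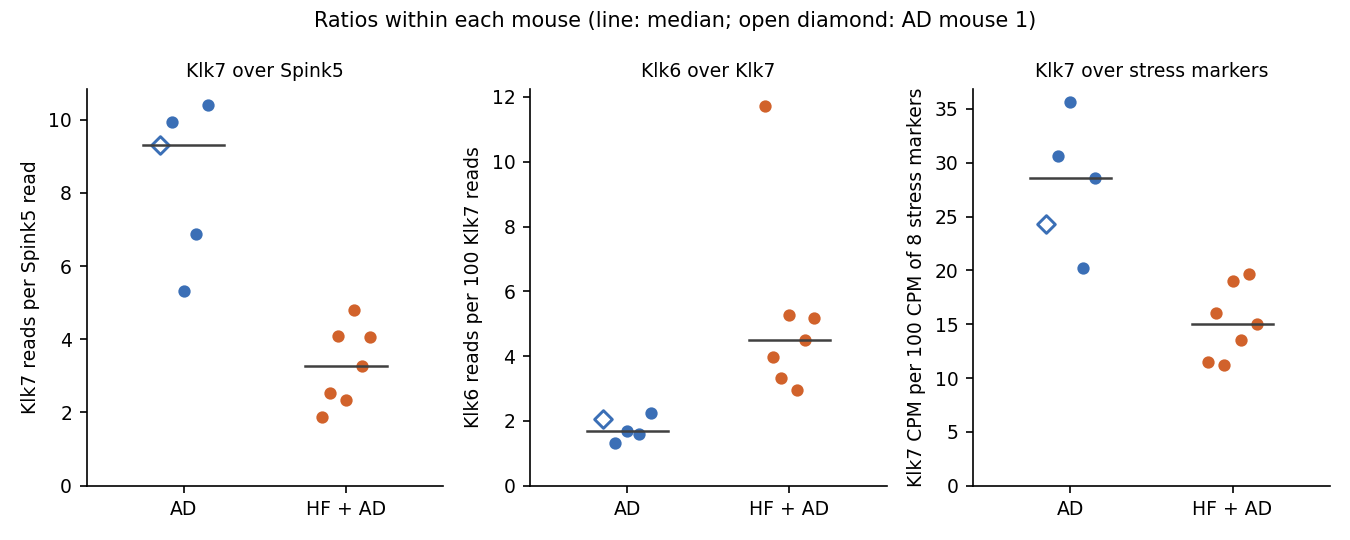
Ratios within each mouse: Klk7 reads per Spink5 read, Klk6 reads per 100 Klk7 reads, and Klk7 CPM per 100 CPM of the 8 stress keratinocyte markers; blue, AD (n = 5, open diamond AD mouse 1), orange, HF + AD (n = 7), line, median. In each of the 3 panels no AD mouse falls within the HF + AD range: 5.32 to 10.4 against 1.89 to 4.80, 1.31 to 2.25 against 2.94 to 11.7, and 20.2 to 35.6 against 11.2 to 19.7. The Klk6 and stress marker ratios were chosen after the values were seen. In the stress marker ratio the nearest values nearly touch, and the markers include Sprr1b and Krt6b, which followed Klk7 closely.

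The gene whose level followed Klk7 most closely across mice was another kallikrein. With each group centred on its own mean and over 12 mice, which share a common scaling and AD mouse 1, Pearson's r of log2(CPM + 1) with Klk7 was 0.966 for Klk9, 0.962 for Tprg, 0.939 for Sprr1b, 0.936 for Krt6b and 0.926 for Ube2g1. Sprr1b, a cornified envelope precursor, and Krt6b, a keratin of wounded and hyperproliferative epidermis, belong to the stress response of keratinocytes. Without AD mouse 1 these values lay between 0.791 (Ube2g1) and 0.908 (Klk9). For Spink5 the closest genes were Tuba4a (0.934), Rpl36al (0.924), Bicd2 (0.924), Coro1c (0.917) and Hspa5, none of them a kallikrein.

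AD mouse 1 also had the highest level of the stress keratinocyte markers, a list of 8 genes led by Krt6a and Krt17. Their summed level was 24474 CPM in AD mouse 1, at most 9732 CPM in the other AD mice and 7198 to 18461 CPM in the HF + AD mice, and none of the 8 was called between groups (median log2 fold change −0.29). The median of the sum was 9278 CPM in the AD and 13960 CPM in the HF + AD mice. Of the 8, 3 had a positive and 5 a negative fold change. Krt6a, with a mean of 8957 CPM the largest part of the sum, had 0.25 on the log2 scale (edgeR, adjusted p = 0.619). Markers of suprabasal and granular keratinocytes, the cells that make kallikreins, summed to 5300 CPM in AD mouse 1, at most 3264 CPM in the other AD mice and 1658 to 4217 CPM in the HF + AD mice, with 0 of 13 called. AD mouse 1 differed in other cell types as well. Among the AD mice it had the highest summed markers of dermal fibroblasts (9924 CPM), adipocytes (641 CPM) and leukocytes (271 CPM). Its sums were the lowest for inner root sheath (6745 CPM), hair shaft (2574 CPM) and sebocytes (795 CPM). Per 100 CPM of the stress markers, the AD mice held 24.3, 30.6, 35.6, 20.2 and 28.6 CPM of Klk7. The HF + AD mice held 11.2 to 19.7 (median 15.01). AD mouse 1 was then not the highest, and the groups did not overlap, as for 0.24% of all genes in this direction and 0.417% in the other. The nearest values were 20.2 in AD mouse 4 and 19.7 in HF + AD mouse 6, and the denominator had the higher median in the HF + AD group. This ratio was chosen after the values were seen. Its denominator holds Sprr1b and Krt6b, which were among the genes that followed Klk7 most closely. Spread that these share with Klk7, in AD mouse 1 too, therefore cancels in part by construction. The 0.24% is a share over genes not chosen for such likeness. The part of the stress markers in the difference was not tested.

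**Figure D4:**
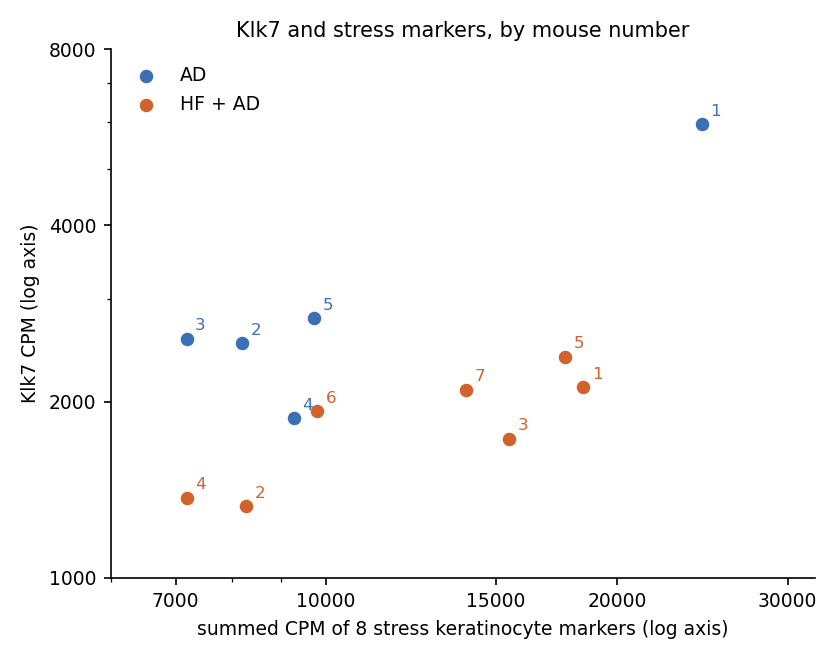
Klk7 CPM against the summed CPM of the 8 stress keratinocyte markers in each mouse, both on log axes, with mouse numbers beside the points; blue, AD, orange, HF + AD. AD mouse 1 lies far up at 24474 and 5951 CPM, and the HF + AD mice hold 11.2 to 19.7 against 20.2 to 35.6 CPM of Klk7 per 100 CPM of markers.

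Among the other kallikreins listed in the files (19 symbols), Klk9 was the only one with enough counts to be tested. It lies between Klk10 and Klk8 (chromosome 7, 43791891 to 43796757, plus strand) and fell in the HF + AD group. AD mice 1 to 5 had 317, 73.8, 69.1, 54.1 and 94.6 CPM, and the HF + AD mice 24.7 to 64.2 CPM (median 42.2). All HF + AD mice lay below 4 of the AD mice, and 4 of the 7 lay below all of them. Its log2 fold change in edgeR was −1.41, with a standard error of 0.38 (adjusted p = 0.0286; two-sided exact permutation test, p = 0.0126), and without AD mouse 1 it was −0.67 (adjusted p = 0.0992). Without HF + AD mouse 1, 2 or 4 the adjusted p was 0.0596, 0.0628 or 0.0591. Of the other 18 symbols, 10 had no read in any mouse and the highest count in 1 mouse was 12. These include the near-identical Klk1b genes, whose reads counting could split.

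Other genes of desquamation were taken from a list of 43 found in the files, of which 42 were tested. In the HF + AD group 6 rose and 1 fell, or 16.7% of those tested beside 9.2% of all genes, and the median log2 fold change was 0.12 (0.023 over all genes). Among 14 inhibitors, 2 rose, where 4.43% of all genes tested did. Spink12, a Kazal-type inhibitor of the same family as Spink5, stood at 4.26 to 16.2 CPM in the AD mice and at 23.9 to 154 CPM in the HF + AD mice, without overlap, beside 2.89% of all genes that separated upward. At 2.59 ± 0.49 (standard error; edgeR, adjusted p = 0.00714), its log2 fold change was the largest of the list and passed in all 12 fits that left out a mouse (adjusted p up to 0.0240). With the replicate number as a block in edgeR, Spink12 missed the threshold (adjusted p = 0.0528). The numbers do not mark shared animals, and fewer of all genes passed in that fit. Slpi, the secretory leukocyte protease inhibitor, which also restrains KLK7, rose from 10.3 to 24.6 CPM in the AD mice to 12.8 to 95.5 CPM (log2 fold change 1.58, adjusted p = 0.0284). It missed the threshold in 6 of the 12 fits that left out a mouse (adjusted p up to 0.0667), and its log2 fold change was 1.23 when HF + AD mouse 1 was left out (adjusted p = 0.0647). None of the other 12 inhibitors passed, among them the abundant cystatins Cstb (log2 fold change 0.54, adjusted p = 0.135) and Csta1 (−0.49, adjusted p = 0.500).

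Among the 13 other proteases, 2 rose, where 4.43% of all genes tested did. Tmprss13, a membrane-bound serine protease of the epidermis, went from 47.6 to 114 CPM in the AD mice to 133 to 208 CPM in the HF + AD mice without overlap (log2 fold change 0.81 ± 0.20, standard error; edgeR, adjusted p = 0.0181) and passed in all 12 fits that left out a mouse (log2 fold change 0.65 to 0.90). It missed the threshold in edgeR with the replicate number, which does not mark shared animals, as a block (adjusted p = 0.0781). Of all genes, 2.89% separated upward without overlap. Ctsd, the lysosomal aspartic protease cathepsin D, went from 207 to 453 CPM to 424 to 842 CPM (log2 fold change 0.67, adjusted p = 0.0405). St14 (matriptase), which can activate pro-kallikreins, had a log2 fold change of 0.38 (adjusted p = 0.0961), and Ctsl (cathepsin L), a target of cystatin M/E, had 0.49 (adjusted p = 0.220) and Lgmn, its other target, −0.15 (adjusted p = 0.628). The groups of Tmprss11e did not overlap either (0 to 12.6 CPM against 15.7 to 28.9 CPM), beside the same 2.89% of all genes, but its fold change did not pass (log2 fold change 1.59, adjusted p = 0.0946). The abundant proteases Ctsb (0.058, adjusted p = 0.841), Asprv1 (−0.12, adjusted p = 0.875) and Blmh (0.45, adjusted p = 0.0857) did not pass either.

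Of 8 genes of corneodesmosomes and desmosomes, 2 rose, where 4.43% of all genes tested did. The list holds substrates of the kallikreins and plaque proteins inside the cell. Cdsn, which encodes corneodesmosin, had 41.8 to 162 CPM in the AD mice and 134 to 263 CPM in the HF + AD mice (log2 fold change 0.97, adjusted p = 0.0497 from edgeR; 1.27 without AD mouse 1, adjusted p = 0.0140). Dsp, the plaque protein desmoplakin, had 725 to 1389 CPM and 1109 to 2652 CPM (log2 fold change 0.75, adjusted p = 0.0360; 0.95 without AD mouse 1, adjusted p = 0.0116). Besides AD mouse 1, Cdsn passed only without AD mouse 5 (adjusted p = 0.0321), and it missed the threshold in the other 10 fits that left out a mouse (up to 0.110). Dsp missed it in 8 of these 12 (up to 0.0840), and Ctsd in 8 (up to 0.0907). With the GC correction, chosen after the data were seen, Cdsn (0.0931), Dsp (0.0725), Ctsd (0.116) and Tslp (0.0554) missed it, and Furin, a proprotein convertase of the list, passed as lower (log2 fold change −0.73, adjusted p = 0.0460). The desmosomal cadherins Dsg1a (−0.097, adjusted p = 0.741) and Dsc1 (0.12, adjusted p = 0.837), both kallikrein substrates, did not pass.

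Among the receptor and cytokine genes of the list, Tslp fell. It encodes thymic stromal lymphopoietin, a keratinocyte cytokine that starts type 2 inflammation and is induced when KLK5 cuts the receptor PAR2 (F2rl1). A link of this fall to the kallikreins was not tested. AD mice 1 to 5 had 71.7, 43.5, 40.4, 19.6 and 9.86 CPM and the HF + AD mice 4.26 to 28.7 CPM (log2 fold change −1.53 ± 0.46, standard error; edgeR, adjusted p = 0.0449). The groups overlapped, with 4 of 7 HF + AD mice below all AD mice, and without AD mouse 1 the log2 fold change was −1.14 (adjusted p = 0.113). Of the fits that left out a mouse, it passed in those omitting AD mouse 4 (0.0443), AD mouse 5 (0.0222) and HF + AD mouse 5 (0.0161). F2rl1 had a log2 fold change of −0.41 (adjusted p = 0.157). Tgm1 and Tgm3, the transglutaminases set beside Cst6, did not pass (adjusted p = 0.384 and 0.874).

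**Figure D5:**
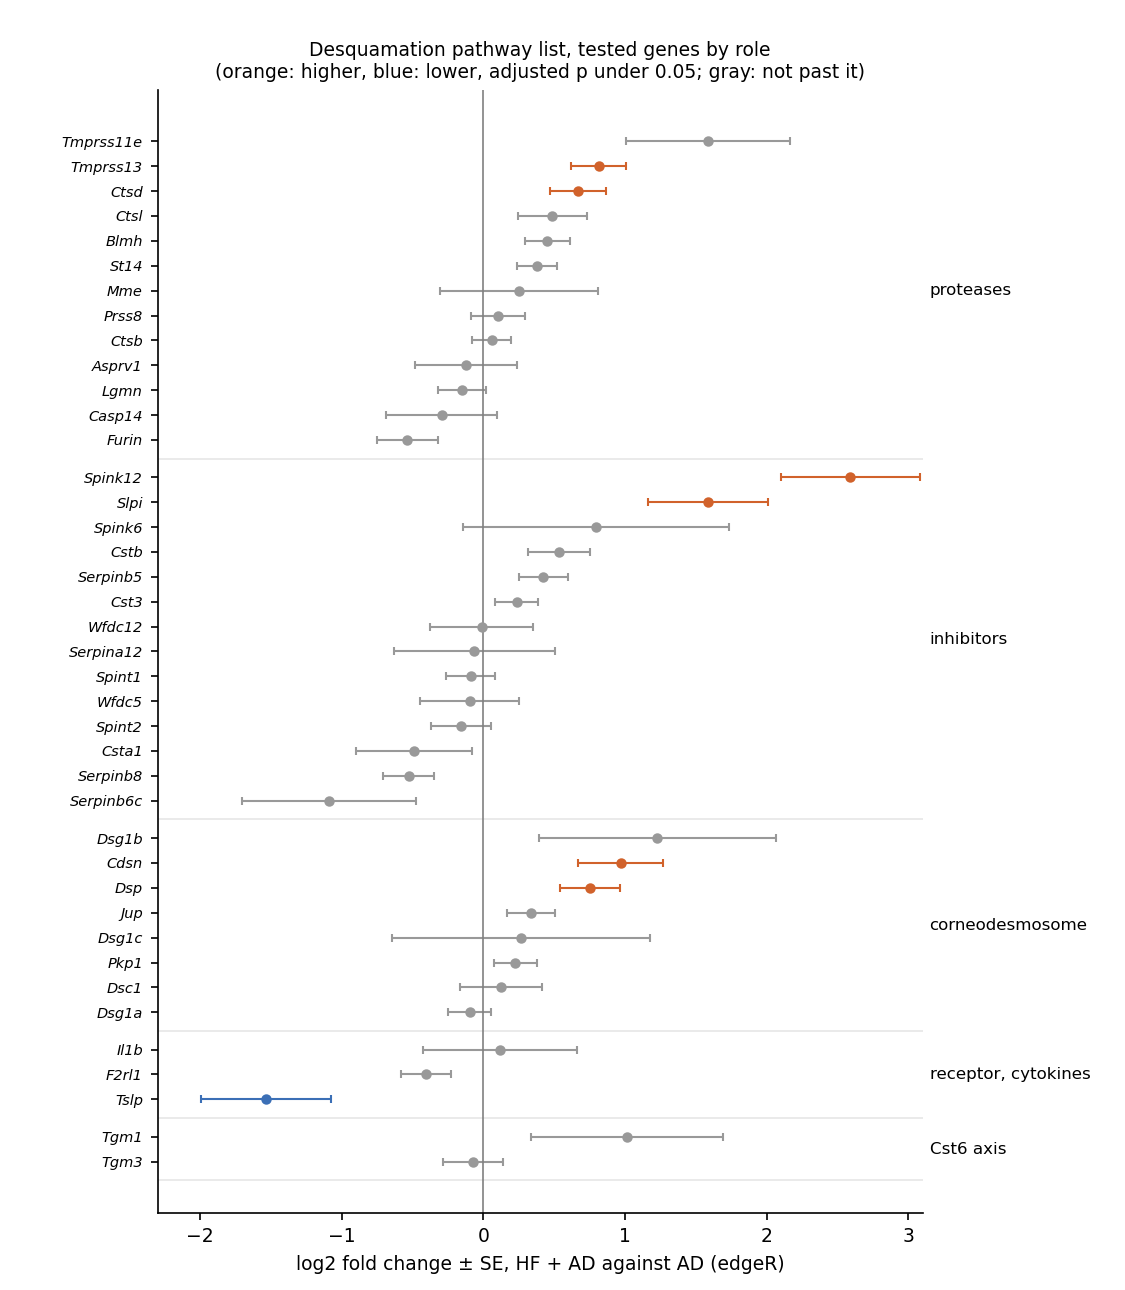
Log2 fold change ± standard error (edgeR, HF + AD against AD) for tested genes of the desquamation list, grouped by role; orange, higher and blue, lower at an adjusted p under 0.05, gray, not past it. Spink12 lies farthest right at 2.59, Tslp farthest left at −1.53, and 7 genes are coloured, with the others gray.

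Markers of other cells of whole skin were read beside these genes, as lists whose part in the results was not tested. Basal keratinocyte markers summed to 3666 to 5380 CPM in the AD mice and to 6314 to 10991 CPM in the HF + AD mice, and 3 of 7 rose (Krt5, Krt14 and Krt15), where 4.43% of all genes tested rose and 4.77% fell. Krt5 led this sum, with a mean of 4118 CPM. Col17a1 (log2 fold change 0.0010, adjusted p = 0.998 from edgeR), Itga6 (0.14, 0.564), Itgb4 (0.39, 0.236) and Trp63 (−0.29, 0.331) did not pass. Of the inner root sheath markers 2 of 7 rose, with sums of 6745 to 11226 CPM and 8233 to 11710 CPM, and of the hair shaft markers 3 of 9 rose, with 2574 to 5271 CPM and 3974 to 6576 CPM. Of the skeletal muscle markers 2 of 8 fell, with 1037 to 2339 CPM and 671 to 1613 CPM. No marker of sebocytes (7 tested), dermal fibroblasts (7), adipocytes (5) or leukocytes (7) was called, and their sums overlapped between the groups.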

How the data were processed

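The skin transcriptome of 12 mice (5 AD, 7 HF + AD, grouped by their labels) was read from 3′ ends (QuantSeq). The values are gene counts as the authors deposited them, not normalized. The submitters' processing notes name Bowtie2, bedtools and mm10, and versions, annotation, strand and duplicate removal are not given in the sources used here. Of the 23282 entries, 35 symbols are listed more than once and were kept apart, and none of the 10 genes is among them.

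HF + AD was compared with AD by edgeR 4.0.16 in R 4.3.3 (TMM, filterByExpr, quasi-likelihood test on the group alone, p-values of 14163 genes adjusted after Benjamini–Hochberg, threshold 0.05). The standard error is the fold change divided by the root of the F statistic. Single genes were also compared on log2(CPM + 1) by a two-sided exact permutation test, whose p-values are not adjusted for the number of genes. Both tests judge the group difference against the variation between these mice. Reads without molecular identifiers are not independent molecules. Other fits used limma 3.58.1 (prior count 2) and DESeq2 1.42.0, other steps Python 3.11.15 and SciPy 1.17.1.

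The genes and lists were chosen with earlier results of these data known, so no test over a list was made. Genes named besides the 10 are those of the desquamation and kallikrein lists that passed, up to 5 abundant ones of each, and the 5 genes most like Klk7 and Spink5. Tmprss11e, St14, Furin, Ctsl, Lgmn, F2rl1, Dsg1a, Dsc1, Tgm1 and Tgm3 were added after their values were seen, as were the ratios to Klk7, Cst6 and the stress markers and a correction for GC content. Of the desquamation list, 2 genes are counted but not reported here by name or drawn. The steps were tested on simulated data. Gene positions are from GENCODE M21 (GRCm38), transcript GC content from the same release, and promoter windows from RefSeq.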

Additional observations from a re-analysis of the deposited data

Results flagged for a closer look

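A single mouse lay far from the rest of its group in 2 of the 20 sets of values examined (10 genes in 2 groups), where chance gives about 1 in 20. For Klk8 it was AD mouse 1, with 131 CPM against 35.4 to 43.5 CPM in the other AD mice (on the log2(CPM + 1) scale the gap to the next mouse was 0.843 of the whole range). For Spink5 it was HF + AD mouse 1, with 1121 CPM against 422 to 591 CPM in the others (0.655 of the range on the same scale). HF + AD mouse 1 was also the highest of its group for Klk6 (248 CPM), Cst6 (558 CPM), Spink12 (154 CPM), Slpi (95.5 CPM), Cdsn (263 CPM) and Dsp (2652 CPM), and had the highest summed basal keratinocyte markers (10991 CPM); the cause was not tested.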

How the results depend on the processing

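The number of the 9 or 10 tested genes that passed was 2 with all mice. It was 1 with library totals alone, without a filter on low counts, with limma-trend and with a robust prior, and in each of these Cst6 passed and Klk7 did not. Klk7 then had log2 fold changes of −0.70 (adjusted p = 0.0548), −0.75 (0.0510), −0.67 (0.0761) and −0.76 (0.0512). With DESeq2's size factors, DESeq2's Wald test, at least 10 counts in every mouse and the GC correction the number stayed at 2. The GC correction, chosen after the data were seen, changed the desquamation list from 7 to 4 genes, which were Spink12, Slpi, Tmprss13 and Furin, the last of which was not among the 7. Leaving out 1 mouse gave 0 to 3 genes of the set (0 on omitting any of AD mice 2 and 3 and HF + AD mice 1, 6 and 7), 2 to 9 of the desquamation list, 0 or 1 other kallikrein, 7 to 16 of the marker lists (10 with all mice) and 639 to 1461 of all genes (1303 with all mice).

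Without single mice, log2 fold changes ranged from −0.34 to 0.40 for Klk5, 0.36 to 1.24 for Klk6, −0.89 to −0.39 for Klk7, −0.36 to 0.32 for Klk8, −0.64 to −0.035 for Klk10, −0.87 to 0.12 for Klk11, −0.71 to 0.032 for Klk13, 0.45 to 0.94 for Spink5 and 0.87 to 1.29 for Cst6. Klk5 was positive with limma-trend (0.28) and when AD mouse 1 or 5 was omitted (0.11 for the latter). In these fits the exact permutation p spanned from 0.136 to 0.864 for Klk5, 0.0242 to 0.267 for Klk6, 0.00303 to 0.0606 for Klk7, 0.130 to 0.989 for Klk8, 0.203 to 0.888 for Klk11, 0.148 to 0.858 for Klk13 and 0.00606 to 0.130 for Spink5, whose exact p was 0.0278 with library totals alone. A pseudocount of 0.1, DESeq2's size factors and a rank statistic moved no exact test across 0.05.

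The labels number the mice of both groups, and the numbers do not mark shared animals. Same-numbered mice deviated together with correlations between −0.0815 and 0.0389, and none of the 5 AD mice correlated best with its own number. A block by number leaves fewer mice to judge the group difference by, since HF + AD mice 6 and 7 stand alone in theirs. With the replicate number as a block, 192 of all genes, 1 of the 10 genes (Cst6), 2 of the desquamation list (Slpi and Dsp), 0 other kallikreins and 6 marker genes passed, Spink12 (adjusted p = 0.0528) and Tmprss13 (0.0781) did not, Klk7 had −0.73 (adjusted p = 0.0701) and Klk5 0.16. Low counts and their spread between mice limit what can be said of Klk14.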
